A study of Mus musculus with 24 samples.

Results

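Transcripts of the extracellular Wnt system were followed in mouse hippocampus: the Wnt ligands, their Frizzled receptors and co-receptors, the secreted antagonists, the R-spondin system, the proteins that let a cell secrete Wnt, and the Axins. The 48 genes are those of 51733 in the count table whose symbol belongs to these families and whose mean over all 24 libraries was at least 0.5 CPM (counts per 1000000 counts of the library). They comprise 13 ligands, 10 Frizzled receptors, 5 co-receptors, 8 antagonists, 8 genes of the R-spondin system, 2 of ligand secretion and 2 Axins. A further 10 genes of the families lay under the minimum (Wnt10b, Wnt6, Sfrp5, Wnt8b, Wnt3a, Wnt1, Rspo4, Dkk1, Wnt8a and Dkk4). Just inside it were Wif1 at 0.526 and Ror2 at 0.552 CPM, and just outside were Wnt10b at 0.393 and Wnt6 at 0.342 CPM. All 48 genes passed the filter on low counts in inputs and in the joint analysis of both fractions. In immunoprecipitates 44 passed, the exceptions being Notum, Sfrp2, Ror2 and Wif1.

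The study asked how eIF2α phosphorylation in defined neurons bears on memory, and it compared translating RNA between genotypes and before and after training. Adult male C57BL/6 mice aged 2 to 3 months were used, 12 in all, and the hippocampi of each were pooled. Conditional knock-in (cKI) mice were eIF2α A/A, so that the alanine form cannot be phosphorylated, with a floxed transgene (fTg) that Cre acts on, and Cre was driven by the CaMKIIα promoter, which is active in excitatory forebrain neurons. Controls are labelled as standard CaMKIIα-Cre+ mice, so all groups carried the same Cre, and the sample type names RiboTag, an epitope tag on a ribosomal protein that is switched on by Cre and pulled down with an anti-HA antibody. Mice were naive or were taken 1 h after fear conditioning, the pairing of a tone with a foot shock. Each mouse gave an input library of the cleared lysate and a library of the immunoprecipitate, which makes 8 groups of 3.

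Wnt proteins are lipid-modified ligands that Porcn acylates and Wls carries to the cell surface. They bind Frizzled receptors together with Lrp5 or Lrp6, which stabilises β-catenin, or signal through Ror1, Ror2 and Ryk without it. Secreted Frizzled-related proteins, Wif1 and Notum act on the ligand, and Dickkopf proteins such as Dkk2 act on Lrp5 and Lrp6. R-spondins bind Lgr4 to Lgr6 and thereby protect Frizzled from the ubiquitin ligases Znrf3 and Rnf43. In the hippocampus the pathway is known for its part in synapse formation, plasticity and the birth of dentate granule cells.

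The bases upstream of the RefSeq gene start are shown for Wnt9a and for those of the genes lower in immunoprecipitates of naive cKI mice that have an entry in the promoter table (Wnt4, Ror1, Wnt7a and Wnt11), because these are the ligands and co-receptor on which the genotype and training results turn. They run 5′ to 3′ on the strand of the gene, in build GRCm38.p6, and end before the annotated gene. Capitals mark any match to 5 motifs sought on both strands, namely the cAMP response element palindrome TGACGTCA, its shorter form TGACG (short site), the C/EBP-ATF element TGATGNAA, the TCF/LEF core CTTTGA and the AP-1 site TGANTCA; the short site lies within the palindrome.
Wnt4 (plus strand, chr4:137277385-137277634): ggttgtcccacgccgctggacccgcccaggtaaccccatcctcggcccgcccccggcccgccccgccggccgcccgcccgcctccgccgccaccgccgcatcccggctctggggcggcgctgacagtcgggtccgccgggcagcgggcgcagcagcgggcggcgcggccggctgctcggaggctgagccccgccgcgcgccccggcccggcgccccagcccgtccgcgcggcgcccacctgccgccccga
Ror1 (plus strand, chr4:100095541-100095790): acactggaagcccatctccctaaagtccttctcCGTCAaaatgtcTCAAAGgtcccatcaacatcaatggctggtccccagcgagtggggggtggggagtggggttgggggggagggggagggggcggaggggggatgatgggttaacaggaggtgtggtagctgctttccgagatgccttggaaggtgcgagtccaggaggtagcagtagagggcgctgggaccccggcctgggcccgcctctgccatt
Wnt7a (minus strand, chr6:91411354-91411603): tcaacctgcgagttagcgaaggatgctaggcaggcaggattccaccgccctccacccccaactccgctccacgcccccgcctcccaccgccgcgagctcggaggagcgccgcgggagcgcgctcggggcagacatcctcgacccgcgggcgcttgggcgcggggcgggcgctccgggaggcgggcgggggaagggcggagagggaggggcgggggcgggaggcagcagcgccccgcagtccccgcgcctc
Wnt11 (plus strand, chr7:98834862-98835083): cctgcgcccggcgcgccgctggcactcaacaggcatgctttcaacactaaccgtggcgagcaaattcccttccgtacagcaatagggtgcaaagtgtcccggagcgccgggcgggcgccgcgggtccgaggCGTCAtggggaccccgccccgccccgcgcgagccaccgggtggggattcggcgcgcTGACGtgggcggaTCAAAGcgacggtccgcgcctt
Wnt9a (plus strand, chr11:59306680-59306848): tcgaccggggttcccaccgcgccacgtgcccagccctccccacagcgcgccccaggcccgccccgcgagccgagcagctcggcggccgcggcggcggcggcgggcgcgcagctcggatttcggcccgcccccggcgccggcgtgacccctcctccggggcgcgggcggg
The window of Ror1, an orphan-type receptor tyrosine kinase for Wnt5a, held a short site and a TCF/LEF core, and that of Wnt11 held 2 short sites and a core. Those of Wnt4, Wnt7a and Wnt9a held no match. All were searched over the full 250 bases, of which 222 are printed for Wnt11 and 169 for Wnt9a because their annotated genes begin within the window. The printed bases of Wnt4 and Wnt9a were 85.2% and 84.6% G or C. Among 32851 windows of 250 bases in the table, 17.8% held the short site, 13.8% the TCF/LEF core, 6.75% the AP-1 site, 3.45% the C/EBP-ATF element and 1.55% the palindrome. Of the 48 genes, 29 had an entry, with 33 windows, of which 3 held the short site (Ror1 and Wnt11), 4 the core (Fzd1, Ror1, Wnt11 and Wnt5b), 2 the AP-1 site (Ror2 and Wnt5b) and 0 either of the others. A match of letters is a description and not a binding site.

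Total counts ranged from 28.8 to 37.7 M in inputs and from 30.6 to 43.5 M in immunoprecipitates, so that 1 count was at most 0.0347 CPM. The summed level of 10 excitatory neuron markers was 7625 to 8822 CPM in inputs and 14166 to 15329 in immunoprecipitates, against 5137 to 5913 and 553 to 739 CPM for 10 astrocyte markers. The sum of 10 immediate-early and related genes induced by activity overlapped between states in control inputs. Naive control replicate 1 was at 613 CPM and control replicate 1 at 1 h was at 611 CPM. In cKI inputs the sum was 455 to 512 CPM when naive and 622 to 663 CPM at 1 h. In immunoprecipitates it was 1005 to 1237 CPM in naive control and 1353 to 2125 CPM in control at 1 h. For cKI immunoprecipitates it was 645 to 947 CPM when naive and 1226 to 1515 CPM at 1 h. Sequencing lane, read from the number after the flow-cell name in the labels, largely moved with genotype. All cKI inputs and naive control inputs 1 and 2 were in lane 4, and the other 4 control inputs were in lane 5. Immunoprecipitates of the 3 naive cKI mice and of cKI replicate 1 at 1 h were in lane 5, and the other 8 were in lane 6. Summed markers of dentate granule cells varied from 439 to 1508 CPM between immunoprecipitates, and were 1137 to 1508 in naive cKI, 442 to 1124 in naive control, 439 to 1086 in control at 1 h and 451 to 1148 in cKI at 1 h, while inputs were at 847 CPM or less. Gene-level counts do not tell the mutant from the normal eIF2α copy, so they do not check the genotype.

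Most of the Wnt system was poorer in immunoprecipitates than in inputs, and the Frizzled receptors were so almost throughout. A few ligands and the divergent Dickkopf gene Dkk3, grouped here with the antagonists, were richer. Of 48 genes, 9 were higher and 35 lower, 4 were not called, and the median log2 fold change was -0.72. Notum, Sfrp2, Ror2 and Wif1, at means of 0.149, 0.127, 0.122 and 0.152 CPM in immunoprecipitates, did not pass the low-count filter there. They entered through their input levels alone, so their lower values are a description, though the counts include them. Of all 17453 genes tested, 85.9% were called (42.8% higher and 43.1% lower), with a median of -0.01, so the count of calls by itself says little and the split of directions and the sizes carry the description. The comparison used edgeR's quasi-likelihood test over all 24 libraries, with Benjamini-Hochberg adjustment, and adjusted p under 0.05 is what "called", "rose" and "fell" mean below. In bulk samples such as these, fewer cells of a type and less RNA per cell cannot be told apart.

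Among ligands 4 were higher, 7 lower and 2 (Wnt16 and Wnt9b) not called. Wnt2 (ENSMUST00000010941), a ligand of the β-catenin route, lay between 3.66 and 5.43 CPM in the 12 inputs (median 4.90) and between 12.4 and 24.8 CPM in the 12 immunoprecipitates (median 17.4). The fractions did not overlap, and the difference was 2.17 on the log2 scale (SE 0.10, adjusted p 1.1e-14), or 4.50-fold. Wnt11 (ENSMUST00000067495), which acts mainly without β-catenin, ranged from 0.551 to 1.21 CPM in inputs (median 0.730) and from 1.37 to 3.77 CPM in immunoprecipitates (median 2.50). It too was higher without overlap, at 1.98 (SE 0.14, adjusted p 4.3e-12). Wnt10a was at 0.93 and Wnt9a at 0.50. On the lower side Wnt5a, the best known ligand of Ror receptors, was at -2.29 (SE 0.08) and Wnt5b at -1.99. They were followed by Wnt2b (-1.35), Wnt3 (-1.32), Wnt7b (-0.62), Wnt4 (-0.56) and Wnt7a (-0.38). The Wnt4 value averages in the cKI immunoprecipitates on which it was chosen, so it is a description, though the counts include it. In control mice Wnt4 overlapped between fractions, at 14.7 to 21.3 CPM in inputs and 10.9 to 19.7 CPM in immunoprecipitates. Wnt3 and Wnt9b overlap each other in the RefSeq annotation, and since the strand setting of the counts is not given in the sources used here, their reads may be shared.

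Of the 10 Frizzled receptors 9 were lower and Fzd10 was not called (0.38, adjusted p 0.1). Fzd2 (ENSMUST00000057893) showed the widest gap of the 48 genes: 8.62 to 15.5 CPM in inputs (median 11.7) and 0.166 to 1.08 CPM in immunoprecipitates (median 0.587). Its log2 fold change was -4.02 (SE 0.10, adjusted p 1.3e-20), or 16.2-fold lower, on 6 to 38 counts per immunoprecipitate. Fzd6 (ENSMUST00000022906), a receptor of the polarity route, was at -3.29 (SE 0.10), Fzd9 at -2.84, Fzd4, which also binds the ligand Norrin, at -2.10, Fzd5 at -1.66 and Fzd1 at -1.17. The smaller differences were those of Fzd3 (-0.84), Fzd7 (-0.71) and Fzd8 (-0.45). Co-receptors were divided. Ror1 (ENSMUST00000039630) was higher, at 0.94 (SE 0.07, adjusted p 2.9e-11), and its paralogue Ror2 was at -2.66, given as a description. Lrp5 was at -2.86 and its close relative Lrp6 at -0.43, so these co-receptors of the β-catenin route differed in size though not in direction, and Ryk was at -0.12.

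The antagonists were lower in 6 of 8. Notum (ENSMUST00000106177), which strips the lipid from Wnt, was at -3.11, Sfrp2 (ENSMUST00000029625) at -2.98 and Wif1 at -2.24. These values are a description, since the genes passed the filter only through inputs. Sfrp1 was at -1.88, Sfrp4 at -0.64 and Dkk2 at -0.33 (adjusted p 0.047). Dkk3 (ENSMUST00000033036), a divergent Dickkopf protein used as a marker of hippocampal pyramidal cells, ranged from 442 to 509 CPM in inputs (median 481) and from 759 to 1128 CPM in immunoprecipitates (median 891), a difference of 1.25 (SE 0.05, adjusted p 5.1e-17). Dkkl1 was not called (0.22, adjusted p 0.41). In the R-spondin system 7 of 8 genes were lower, from Rnf43 at -2.27 and Lgr5 at -1.59 through Rspo1 (-0.91), Lgr4 (-0.80), Lgr6 (-0.74) and Znrf3 (-0.57) to Rspo2 at -0.25, and Rspo3 was at 0.16. Porcn rose by 0.56 and Wls was at -1.89, and Axin1 rose by 0.36 while Axin2, itself a target of the pathway, was at -0.84. All 10 astrocyte, 10 oligodendrocyte, 10 vessel and 8 microglial markers were lower in immunoprecipitates, and all 10 excitatory markers were higher; the part of these cells in the receptor and antagonist values was not tested.

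**Figure D1:**
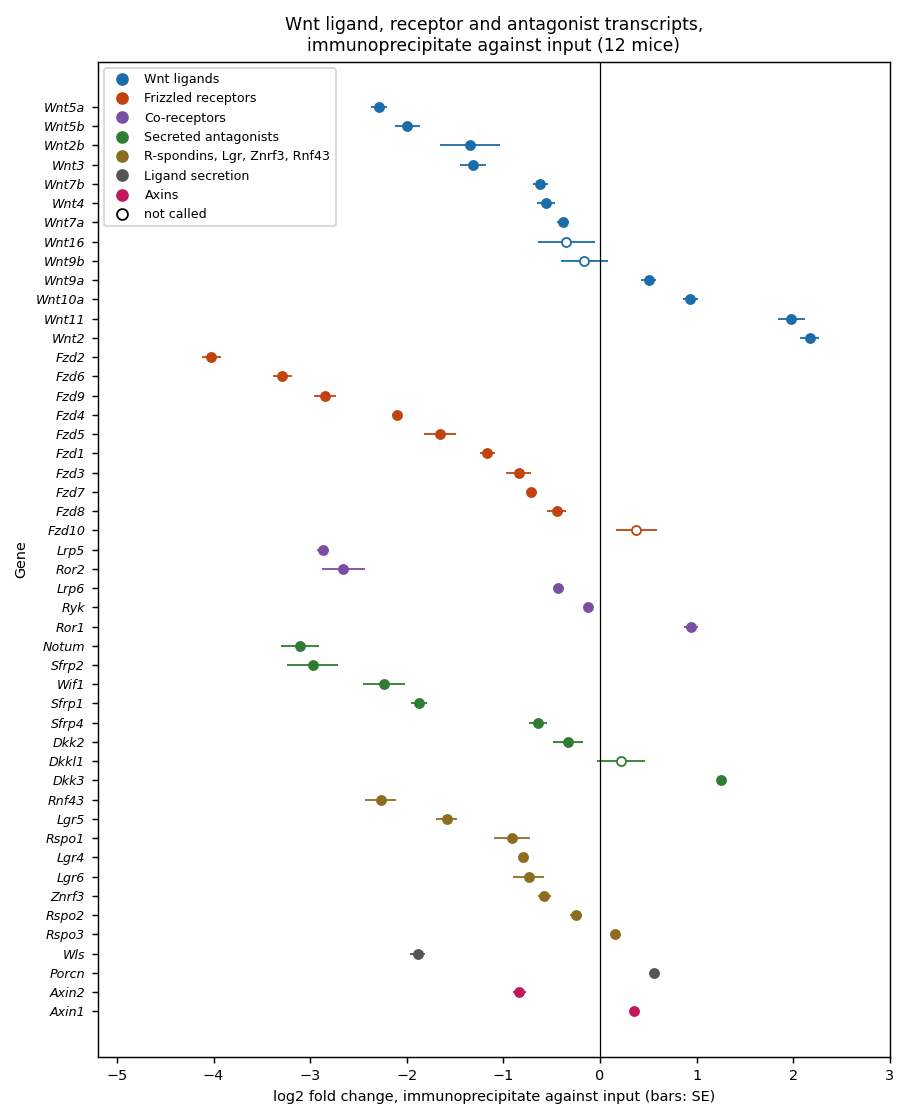
Log2 fold change of immunoprecipitate against input for each of the 48 genes, ordered by role, with SE as bars and open symbols for the 4 genes not called. Frizzled receptors extend to -4.02 (Fzd2) on the left, and Wnt2 (2.17), Wnt11 (1.98) and Dkk3 (1.25) lie farthest to the right. Notum, Sfrp2, Wif1, Ror2 and Wnt4 are shown as a description.

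The other genes of the pathway were counted from lists of textbook members. These counts stand against 42.8% higher and 43.1% lower of all 17453 genes. Of 34 intracellular components such as the dishevelled and casein kinase genes, 18 were higher and 10 lower in immunoprecipitates (median 0.17), and of 23 nuclear components 14 were higher and 8 lower (median 0.20). Of 27 other extracellular modulators, among them glypicans, sulfatases and Kremen genes, 5 were higher and 18 lower (median -1.13). Planar polarity genes were higher for 4 and lower for 11 of 20 (median -0.35). Ctnnb1, which encodes β-catenin, was at 0.17 (SE 0.03, adjusted p 9.6e-07).

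Wnt4 was lower in immunoprecipitates of cKI mice, in naive mice and after conditioning alike. Wnt4 (ENSMUST00000045747) encodes a ligand that can act with or without β-catenin and is known for its part in the development of the kidney and the female reproductive tract. It was taken up because of this difference, so the values that follow describe it and no test is given. In immunoprecipitates it measured 12.7, 17.2 and 19.7 CPM in naive control, 15.7, 10.9 and 12.4 in control at 1 h, 3.96, 5.83 and 7.83 in naive cKI, and 4.29, 4.42 and 5.06 CPM in cKI at 1 h. The lowest of 6 control libraries (10.9) lay above the highest of 6 cKI libraries (7.83). The fitted log2 fold changes were -1.52 in naive mice and -1.51 at 1 h, or 2.88-fold and 2.84-fold lower, and the interaction of genotype and training was 0.02.

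In inputs of the same mice Wnt4 overlapped between genotypes. It measured 14.7, 21.3 and 16.8 CPM in naive control, 18.4, 17.0 and 16.7 in control at 1 h, 13.4, 16.5 and 16.1 in naive cKI, and 15.1, 12.4 and 13.6 CPM in cKI at 1 h. The input difference over both states was -0.27 (SE 0.08, adjusted p 0.09) and was not called by edgeR. DESeq2's Wald test called it, also at -0.27. Without single libraries its edgeR adjusted p ran from 0.038 to 0.2. At 1 h, where the highest cKI input (15.1) was under the lowest control input (16.7), the input difference was -0.35 (SE 0.12, adjusted p 0.36). With only the 2 groups in the fit the 1 h difference was called, again at -0.35. In control mice the mean was 17.5 ± 2.21 CPM (SD, n = 6) in inputs and 14.8 ± 3.33 in immunoprecipitates, and in cKI mice 14.5 ± 1.62 and 5.23 ± 1.43 CPM. The ratio of immunoprecipitate to input thus differed by -1.22 between genotypes, again as a description. In that comparison the count of the 48 genes past the threshold was 1, Wnt4 itself, and 0.0229% of 17453 genes were called. Since Wnt4 was chosen on these immunoprecipitates nothing is read from this count, which was kept in 8 of 24 fits that left out 1 library each.

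The size of the Wnt4 difference in immunoprecipitates was similar with lane in the model, at -1.36 in naive mice, -1.45 at 1 h and -1.41 over both states. Within lane 6 alone, which holds 3 control and 2 cKI libraries of the 1 h groups, it was -1.45. Only the cKI group at 1 h spans both lanes, with replicate 1 in lane 5 and replicates 2 and 3 in lane 6. The lane term therefore rests on that group, and in naive mice lane and genotype cannot be told apart without it. Granule cell markers also moved with genotype in naive mice, with a median log2 fold change of 1.24 and 1 of 10 called, and were at a median of -0.09 with 0 of 10 called at 1 h. Markers of CA1 pyramidal cells were at a median of -0.48 in naive mice and 0.03 at 1 h, with 0 of 8 called in each. The part of either cell type in the Wnt4 difference was not tested. Leaving out any 1 library gave -1.79 to -1.32 in naive mice and -1.62 to -1.36 at 1 h.

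**Figure D2:**
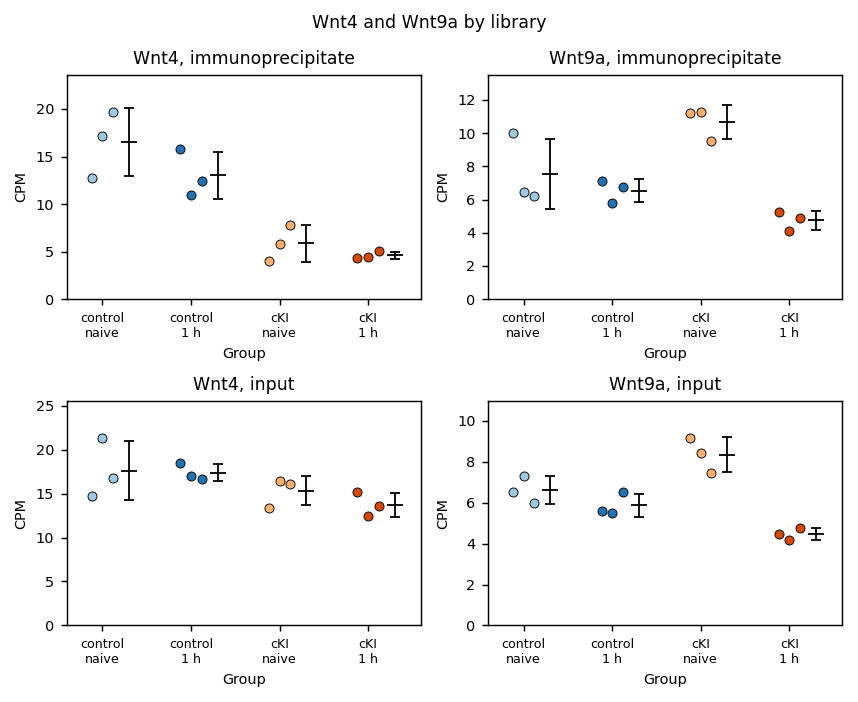
Levels of Wnt4 and Wnt9a in CPM in each library, by group, in immunoprecipitates (top) and inputs (bottom); the bar beside each group is the mean with SD of 3 mice. Wnt4 separates by genotype in immunoprecipitates (control 10.9 to 19.7, cKI 3.96 to 7.83), and Wnt9a separates naive from conditioned cKI mice in both fractions.

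Several genes near Wnt4 on its chromosome also differed between genotypes. In the gene order of GRCm38.p6, and among genes tested, 5 of the 20 nearest (10 on each side) were called between genotypes in immunoprecipitates, or 25%, against 1.69% of all 15238 genes. They were Luzp1 (-0.26), Ephb2 (0.26), Hp1bp3 (-0.41), Sh2d5 (-0.45) and Kif17 (-0.42). In inputs 6 of 20 were called, or 30%, against 3.15% of 17232 genes: Ephb2 (0.17), Usp48 (0.22), Rap1gap (-0.18), Hp1bp3 (-0.36), Sh2d5 (-0.34) and Kif17 (-0.39). Hp1bp3, Sh2d5 and Kif17 are consecutive and were lower in both fractions. Among the nearest 100 genes, 16 were called in immunoprecipitates (3 higher and 13 lower) and 26 in inputs (4 higher and 22 lower). Wnt4 itself was farther from 0 in immunoprecipitates than any of the 20 nearest genes, but it was chosen for that difference, so nothing is read from this. In the same count for the other genes of the set, no gene had more than 2 of 20 neighbours called in immunoprecipitates or more than 3 of 20 in inputs. The part of this neighbourhood in the Wnt4 difference was not tested.

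**Figure D3:**
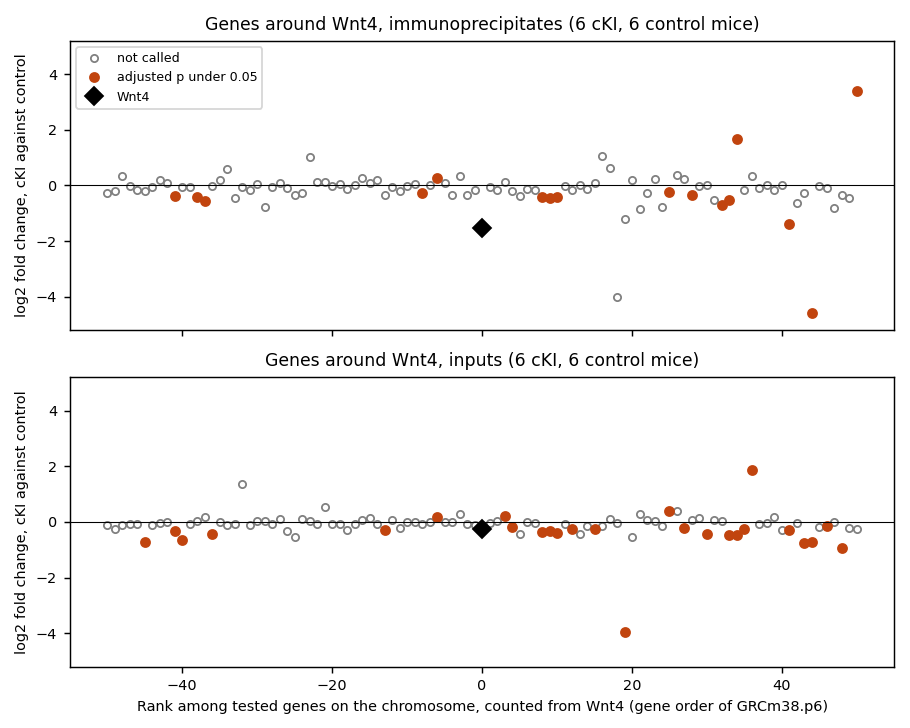
Log2 fold change of cKI against control over both training states for the 50 tested genes on each side of Wnt4, in order along the chromosome, in immunoprecipitates (top) and inputs (bottom); filled circles passed the threshold. Of 100 neighbours, 16 were called in immunoprecipitates and 26 in inputs, and Wnt4 is at -1.52 and -0.27.

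In immunoprecipitates of naive mice the ligands Wnt7a and Wnt11, the co-receptor Ror1 and the R-spondin Rspo2 were also lower in cKI, and the antagonist Sfrp4 was higher. Of 44 genes 1 was higher and 5 lower, Wnt4, chosen on this contrast, among them. This stands against 3.7% of all 15238 genes tested (1.2% higher and 2.5% lower). By edgeR 18 of the 44 had an unadjusted p under 0.05. The share of all genes at that level was not counted, so the 18 are not read as an excess. The median log2 fold change of the 44 was -0.08, against 0.00 over all genes. At 1 h the count was Wnt4 alone, so nothing is read from it, and 0.0591% of all genes were called. Over both states it was 1 higher and 2 lower, again with Wnt4, against 0.656% and 1.04%, or 1.69% in either direction. Summed granule cell markers were higher in all 3 naive cKI libraries than in any of the naive controls, as given above. Summed markers of CA1 pyramidal cells overlapped, at 1266 to 1645 CPM in naive cKI and 1592 to 2122 CPM in naive control. Their median log2 fold change was -0.48, with 0 of 8 called. The part of either cell type in these values was not tested.

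Wnt7a (ENSMUST00000032180), a ligand that promotes presynaptic assembly, measured 11.7, 15.3 and 16.5 CPM in naive control and 8.75, 9.40 and 9.89 CPM in naive cKI immunoprecipitates. The groups did not overlap, and it fell by 0.66 on the log2 scale (SE 0.15, adjusted p 0.032). Wnt11 was at 3.03, 3.42 and 3.77 CPM in naive control and at 1.37, 2.09 and 2.04 CPM in naive cKI. It fell by 0.92 (SE 0.24, adjusted p 0.049), again without overlap. Ror1 measured 10.6, 12.2 and 12.0 CPM in naive control and 7.59, 6.66 and 8.40 CPM in naive cKI, and fell by 0.65 (SE 0.13, adjusted p 0.02). Over both states Ror1 fell by 0.40 (SE 0.09, adjusted p 0.046). Rspo2 (ENSMUST00000063492), an R-spondin that amplifies Wnt signals, was at 22.2, 23.6 and 20.3 CPM in naive control and 16.1, 15.4 and 14.1 CPM in naive cKI, and fell by 0.57 (SE 0.12, adjusted p 0.027).

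Sfrp4 (ENSMUST00000222464), a secreted decoy that binds Wnt, went the other way. It measured 0.433, 0.528 and 0.596 CPM in naive control and 1.13, 1.56 and 1.28 CPM in naive cKI immunoprecipitates, on 17 to 58 counts per library. The groups did not overlap, and it rose by 1.31 (SE 0.21, adjusted p 0.013). At 1 h it measured 0.997, 0.953 and 0.948 CPM in control and 1.22, 0.912 and 1.14 CPM in cKI, so that the groups overlapped (0.17, adjusted p 0.98). Over both states it rose by 0.74 (SE 0.15, adjusted p 0.031).

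At 1 h the same genes were close between genotypes: Wnt7a was at 0.05, Wnt11 at -0.15, Ror1 at -0.15 and Rspo2 at -0.04, none of them called. The difference between the states is the interaction term, which edgeR called for 0 of 44 genes, against 0.0131% of all genes. DESeq2's Wald test called 2 of the 44 and 85 of all 15238 genes. By edgeR 11 of the 44 had an unadjusted p under 0.05, a level at which all genes were not counted. The edgeR interaction was 0.71 for Wnt7a (SE 0.21, adjusted p 0.31) and -1.14 for Sfrp4 (SE 0.30, adjusted p 0.28). It was 0.52 for Rspo2, 0.51 for Ror1 and 0.78 for Wnt11. A genotype difference limited to naive mice is therefore not shown for any of them.

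With lane as a covariate none of these genotype calls remained. The naive differences were then -0.59 for Wnt7a, -0.76 for Wnt11, -0.45 for Ror1, -0.50 for Rspo2 and 1.08 for Sfrp4, each at an adjusted p of 0.73, and no naive cKI immunoprecipitate shared a lane with a naive control one. Single libraries also decided calls in naive mice. The Sfrp4 call was lost without naive control replicate 2 (adjusted p 0.092), the Ror1 call without naive control replicate 2 or 3 or naive cKI replicate 2 (adjusted p up to 0.13), and the Rspo2 call without naive control 2 or 3 or naive cKI 2 or 3 (up to 0.16). The Wnt7a call was lost without naive control 2 or 3 or any naive cKI replicate (up to 0.16). The Wnt11 call was kept only without naive control 1 or cKI 2 or 3 at 1 h, and otherwise reached an adjusted p of up to 0.19. Over both states the Ror1 call was kept only without control replicate 1 of either state or naive cKI 3 (otherwise up to 0.14). The Sfrp4 call over both states was lost without control 2 or 3 of either state, naive cKI 2 or cKI 1 or 3 at 1 h (up to 0.095).

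**Figure D4:**
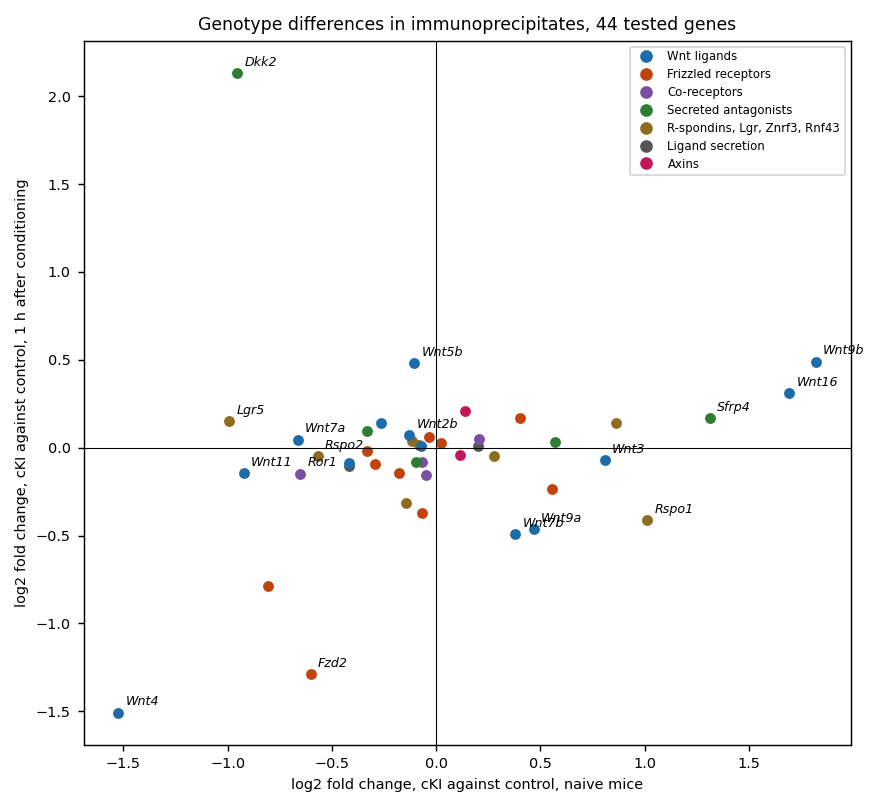
Log2 fold change of cKI against control in immunoprecipitates for the 44 tested genes, in naive mice (horizontal axis) and 1 h after conditioning (vertical axis), coloured by role. Wnt4 lies at about the same value on both axes (-1.52 and -1.51), Sfrp4 lies at 1.31 and 0.17, and Dkk2 lies at -0.95 and 2.13.

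In inputs Fzd2, Wnt7b and Wnt7a were lower in cKI mice over both states, and Sfrp1 was higher in naive cKI mice. Markers of other cells moved with genotype in the same inputs. Over both states 8 of 10 oligodendrocyte, 3 of 10 astrocyte, 2 of 10 inhibitory neuron and 1 of 10 vessel markers fell and 2 of 10 granule cell markers rose. Summed oligodendrocyte markers were 6080 to 6671 CPM in naive control, 4647 to 5374 in control at 1 h, 4442 to 5133 in naive cKI and 4211 to 4389 CPM in cKI at 1 h. The part of these cells in the genotype values of Fzd2, Wnt7a, Wnt7b and Sfrp1 was not tested. Fzd2, whose protein binds several Wnt ligands, measured 12.3, 15.2 and 11.2 CPM in naive control, 15.5, 14.0 and 14.9 in control at 1 h, 12.2, 10.5 and 10.7 in naive cKI, and 9.17, 8.62 and 9.69 CPM in cKI at 1 h. At 1 h the genotypes did not overlap, and it fell by 0.70 (SE 0.10, adjusted p 0.011), the only gene of 48 called there, against 0.267% of 17232 genes. Over both states it fell by 0.46 (SE 0.07, adjusted p 0.0043). In immunoprecipitates, where Fzd2 had 6 to 38 counts, the difference over both states was -0.95 (SE 0.24, adjusted p 0.066).

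Over both states 3 of 48 genes were called in inputs, all lower, against 3.15% of all genes (1.15% higher and 2% lower). Besides Fzd2 these were Wnt7b (ENSMUST00000109424), a ligand known for dendrite growth, at -0.23 (SE 0.05, adjusted p 0.027), and Wnt7a at -0.23 (SE 0.05, adjusted p 0.038). Wnt7b ranged from 50.6 to 62.4 CPM in 6 control inputs and from 43.3 to 52.4 in 6 cKI inputs, so the genotypes overlapped. Wnt7a ranged from 19.7 to 21.6 and from 16.4 to 19.9 CPM and overlapped as well. With lane as a covariate none of these calls remained: Fzd2 was at -0.62 (adjusted p 0.06) and at 1 h at -0.94 (adjusted p 0.2), Wnt7b at -0.18 (0.27) and Wnt7a at -0.18 (0.29). The 1 h call of Fzd2 was lost without any 1 of the 3 cKI inputs at 1 h (adjusted p up to 0.079). Over both states the Wnt7b call was lost without control 1 or 2 at 1 h, naive cKI 1 or cKI 1 or 2 at 1 h (up to 0.075), and the Wnt7a call was kept only without naive control 1 or 2 or naive cKI 3 (otherwise up to 0.11).

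In naive mice 1 of 48 genes was called in inputs, against 0.859% of all genes. Sfrp1 (ENSMUST00000033952), a secreted antagonist that binds Wnt and Frizzled, measured 4.53, 5.03 and 5.35 CPM in naive control and 10.7, 9.10 and 7.28 CPM in naive cKI inputs. It rose by 0.85 (SE 0.15, adjusted p 0.018), or 1.81-fold, without overlap. With lane as a covariate it was at 0.93 (adjusted p 0.03), and within lane 4 alone, with 2 naive controls, at 0.92 (adjusted p 0.051). The call was lost without naive control 1, naive cKI 1 or naive cKI 2 (adjusted p up to 0.075) and with the 2 groups alone in the fit (0.095). In these naive inputs 9 of 10 oligodendrocyte markers fell. Sfrp1 in immunoprecipitates was at -0.10 in naive mice (adjusted p 0.79). Sfrp4 in naive inputs was at 0.83 (SE 0.19, adjusted p 0.056), the same sign as in immunoprecipitates.

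Conditioning was followed by a lower level of Wnt9a in cKI mice, in both fractions. Wnt9a (ENSMUST00000000128) encodes a ligand of the β-catenin route known from joint formation and blood stem cells, and as it was taken up for this difference its training values are given without a test. In immunoprecipitates of cKI mice it measured 11.2, 11.3 and 9.51 CPM when naive and 5.25, 4.12 and 4.89 CPM at 1 h. In inputs of the same mice it measured 9.15, 8.43 and 7.45 CPM when naive and 4.47, 4.16 and 4.75 CPM at 1 h. Neither fraction overlapped between states, and the log2 fold changes were -1.13 and -0.89.

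In control mice the states overlapped. Control immunoprecipitates measured 9.98, 6.46 and 6.18 CPM when naive and 7.09, 5.77 and 6.73 CPM at 1 h (-0.20), and control inputs 6.54, 7.32 and 5.96 CPM when naive and 5.59, 5.51 and 6.51 CPM at 1 h (-0.16). The interaction was -0.93 in immunoprecipitates and -0.73 in inputs. Without naive control replicate 1, whose granule cell sum of 1124 CPM was the highest of the naive controls, the control value in immunoprecipitates was 0.048. The cKI fall in inputs lies wholly within lane 4, and with lane as a covariate the value in immunoprecipitates was -1.0. Summed granule cell markers in cKI immunoprecipitates were 1380, 1137 and 1508 CPM when naive and 1148, 451 and 686 CPM at 1 h, with a median log2 fold change of -0.94 and 0 of 10 called. In cKI inputs the sums were 804 to 834 CPM when naive and 835 to 847 CPM at 1 h. The part of these cells in the Wnt9a values was not tested. Of the 20 genes nearest Wnt9a 0 were called after conditioning in cKI mice in either fraction. Since 0.0459% of all genes were called there in immunoprecipitates and 0.0174% in inputs, nothing is read from this count.

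The genotype contrasts of Wnt9a reuse the cKI libraries on which it was chosen, so they too are a description without a test. The log2 fold changes of cKI against control were 0.47 in naive mice and -0.46 at 1 h in immunoprecipitates, and 0.33 and -0.40 in inputs.

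Counted over the set, training calls were few. In cKI mice the count was Wnt9a alone in both fractions, and nothing is read from it because Wnt9a was chosen on these contrasts. Of all genes 0.0459% were called in cKI immunoprecipitates, or 7 genes, against 32 with the replicate number as a block, and 0.0174% in cKI inputs. In control mice the count was 1 of 44 in immunoprecipitates, against 0.328%, and 3 of 48 in inputs, 2 higher and 1 lower, against 0.737% (0.412% higher and 0.325% lower).

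The call in control immunoprecipitates was Dkk2, a Dickkopf protein that binds Lrp5 and Lrp6. Dkk2 (ENSMUST00000029665) measured 0.560, 0.873 and 0.964 CPM in naive control and 0.0854, 0.202 and 0.196 CPM in control at 1 h, or 22, 38 and 34 counts against 3, 7 and 6. It fell by 2.29 (SE 0.38, adjusted p 0.033), without overlap, and within lane 6, which holds all 6 libraries, it was at -2.29 (adjusted p 0.045). In cKI immunoprecipitates it went from 0.335, 0.376 and 0.544 CPM to 0.596, 0.829 and 0.715 CPM, also without overlap but upward and not called (0.80, SE 0.32, adjusted p 0.33). The interaction was 3.09 (SE 0.50, edgeR adjusted p 0.11), and DESeq2's Wald test called it at 3.12 (adjusted p 0.0042). Without single libraries the edgeR value ran from 0.048 to 0.45 in adjusted p.

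Inputs gave Dkk2 values of the same signs. They were 0.918, 0.868 and 0.928 CPM in naive control, 0.521, 0.306 and 0.374 in control at 1 h, 0.552, 0.614 and 0.831 in naive cKI, and 1.03, 1.02 and 0.807 CPM in cKI at 1 h. The difference after conditioning was -1.17 in control (SE 0.27, adjusted p 0.061) and 0.53 in cKI (adjusted p 0.94), and the interaction was 1.71 (SE 0.36, adjusted p 0.21). The genotype difference at 1 h was 2.13 in immunoprecipitates (adjusted p 0.093) and 1.25 in inputs (adjusted p 0.084). The call in control immunoprecipitates was lost without naive control 2 or 3 or without any of the 3 control libraries at 1 h (adjusted p up to 0.16), and with the 2 groups alone in the fit (0.055).

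In control inputs Sfrp1 and Fzd4 rose after conditioning and Notum fell. Sfrp1 went from 4.53, 5.03 and 5.35 CPM to 7.50, 9.73 and 8.35 CPM, a rise of 0.79 (SE 0.15, adjusted p 0.026), and in cKI inputs it measured 10.7, 9.10 and 7.28 CPM when naive and 7.05, 6.51 and 8.63 CPM at 1 h (-0.28, adjusted p 0.98). Naive controls were thus the lowest of the 4 groups for Sfrp1, and the interaction was -1.06 (SE 0.21, edgeR adjusted p 0.16, 0.0044 by DESeq2's Wald test). Fzd4 (ENSMUST00000058755), the receptor of Norrin in vessels, went from 13.5, 14.1 and 14.8 CPM to 19.5, 16.4 and 18.9 CPM, a rise of 0.38 (SE 0.07, adjusted p 0.023). Its 6 cKI inputs lay between 16.0 and 16.4 CPM. Notum went from 2.15, 2.43 and 2.70 CPM to 1.04, 1.10 and 1.64 CPM, and fell by 0.93 (SE 0.19, adjusted p 0.036), while the 6 cKI inputs lay between 1.27 and 1.56 CPM. The genotype by training interaction was called by edgeR for 0 of 48 genes in inputs, against 0.0348% of all genes. DESeq2's Wald test called 2 of the 48 and 33 of all 17232 genes. By edgeR 10 of the 48 had an unadjusted p under 0.05, a level at which all genes were not counted.

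The 3 naive control inputs also stood apart in oligodendrocyte and vessel markers. Their summed oligodendrocyte markers were 6080 to 6671 CPM against 4211 to 5374 CPM in the other 9 inputs. Their summed vessel markers were 203 to 236 CPM against 155 to 196 CPM. Summed astrocyte markers (5137 to 5780 CPM) and microglial markers (438 to 482 CPM) of naive control inputs overlapped those of the other 9. After conditioning 8 of 10 oligodendrocyte and 2 of 10 vessel markers fell in control inputs. Choroid plexus sums varied from 167 to 753 CPM within and between groups. The part of these cell types in the Sfrp1, Fzd4 and Notum values was not tested. With lane as a covariate none of the 3 calls remained (Sfrp1 0.65, adjusted p 0.63; Fzd4 0.28, 0.66; Notum -1.11, 0.23), and with the 2 groups alone in the fit their adjusted p was 0.067, 0.19 and 0.18. The Fzd4 call was lost without naive control 1 or control 1 or 3 at 1 h (up to 0.14), and the Sfrp1 call without naive control 1 or 2 or control 2 or 3 at 1 h (up to 0.12). The Notum call was kept only without control 3 at 1 h or naive cKI 3 (otherwise up to 0.16).

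**Figure D5:**
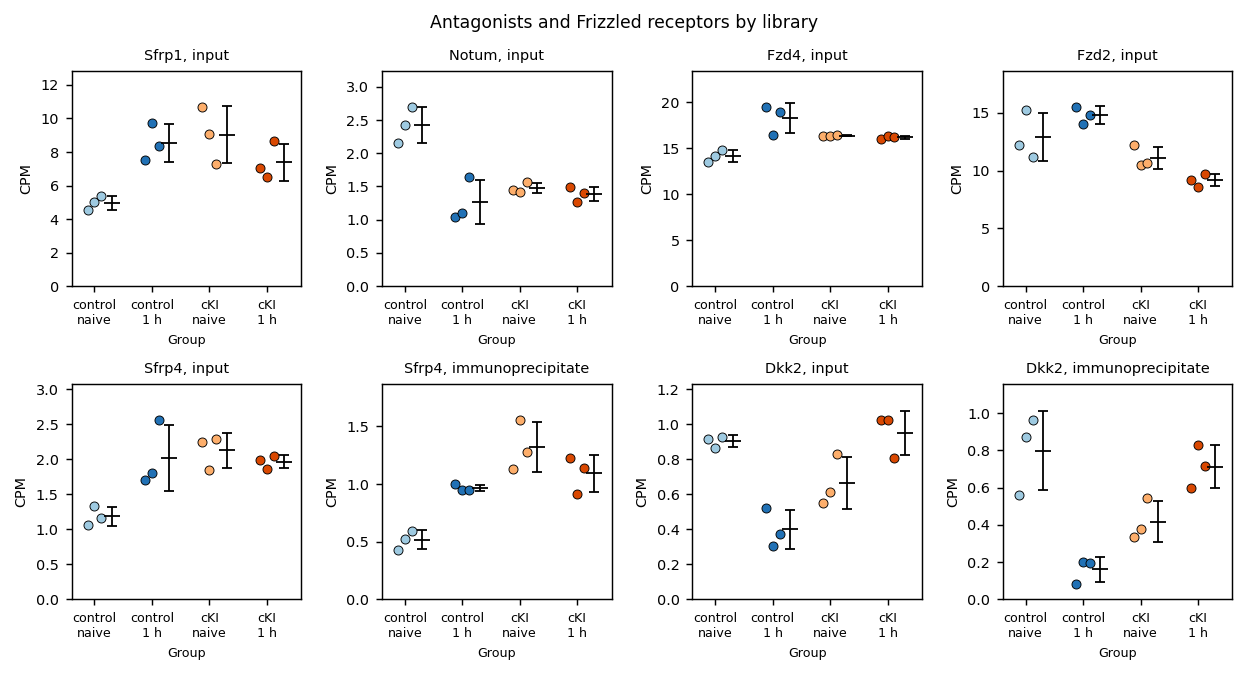
Levels in CPM of Sfrp1, Notum, Fzd4, Fzd2, Sfrp4 and Dkk2 in each library, by group and fraction, with the mean and SD of 3 mice beside each group. Naive control inputs are the lowest group for Sfrp1 (4.53 to 5.35) and the highest for Notum (2.15 to 2.70), and Dkk2 in control immunoprecipitates is lower at 1 h (0.0854 to 0.202) than when naive (0.560 to 0.964).

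The counts of other pathway genes called between genotypes in immunoprecipitates of naive mice are read against 3.7% of all genes called there, 2.5% lower. In them 2 of 34 intracellular components fell, Nkd1 (-0.93, adjusted p 0.023), a target of the pathway that restrains dishevelled, and Ccdc88c (-0.54), and 1 of 22 nuclear components fell, the co-repressor Tle3 (-0.77, adjusted p 0.02). Of 26 other extracellular modulators 2 fell, Kremen1 (-0.55, adjusted p 0.0038), a Dickkopf receptor, and the sulfatase Sulf2 (-0.39), and 0 of 20 planar polarity genes changed. With lane as a covariate 1 of all 15238 genes was called between genotypes in naive immunoprecipitates, so at most 1 of these calls remained. Without naive control replicate 2 the count over all genes was 22. Nkd1 was also lower in naive inputs (-0.75, adjusted p 0.002) and fell after conditioning in control inputs (-0.63, adjusted p 0.0033). Of 26 tested genes on a list of common Wnt targets in inputs, 1 fell between genotypes in naive mice (Nkd1), 2 fell over both states (Nkd1 and Bmp4) and 2 fell after conditioning in controls (Nkd1 and Apcdd1). The shares of all genes called in these contrasts were 0.859%, 3.15% and 0.737%. Of 10 oligodendrocyte markers 9, 8 and 8 fell in the same contrasts, and their part in the target values was not tested. Axin2, a widely used readout of β-catenin signalling, ranged from 9.81 to 15.7 CPM in immunoprecipitates and was called in none of the genotype, training and interaction contrasts of either fraction.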

How the data were processed

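The authors deposited 1 table of raw counts per gene for the 24 libraries, with a gene symbol and an Ensembl transcript per row, and its columns were matched to samples by title. Per the labels' protocols, RNA was selected by poly(A), and directional libraries were sequenced as read pairs. Of tools, cutadapt, Bowtie and DESeq2 are listed, per the submitters' processing notes, with no role stated. How reads were assigned to genes, on which build and whether by strand is not given in the sources used here, so overlapping genes may share reads. Depth is given in the report.

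In R 4.3.3, edgeR 4.0.16 fitted the libraries of each fraction with 1 mean per group (TMM scaling, filterByExpr, robust quasi-likelihood test, Benjamini-Hochberg adjustment over all genes, threshold 0.05), and all 24 libraries together for immunoprecipitate against input. The genotypes were compared in naive mice, at 1 h and over the mean of both states, conditioned mice were compared with naive ones within a genotype, and the interaction was tested. The script was tested on simulated counts. CPM is the count over the library total, and SE belongs to a log2 fold change. Replicates are separate mice per the mouse numbers in the labels' titles. Deviations of same-numbered libraries had all 3 correlations over 0.1 only between naive and conditioned cKI immunoprecipitates (0.16, 0.35 and 0.11). Libraries of different number were not compared, so this does not show a pairing, and the labels do not state one.

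The genes and lists were chosen with earlier results of these data known. Wnt4's immunoprecipitate genotype contrasts and Wnt9a's training contrasts chose them, so these, and the Wnt9a genotype contrasts that reuse the same libraries, carry no test, though counts of calls include them. Immunoprecipitate against input is likewise a description for Wnt4, as it averages in the libraries that chose it. The same holds for Notum, Sfrp2, Ror2 and Wif1, which passed the filter only through inputs. The genes given by library are these, the members called in any genotype, training or interaction contrast, and the 4 with the largest immunoprecipitate to input difference in each direction. In pathway lists, called genes were named, at most 4 per list. Alternatives were DESeq2 1.42.0 size factors and its Wald test, no low-count filter, the replicate number or mouse as a block, lane as a covariate, fits within 1 lane or with only the 2 groups compared, and leaving out each library. Sequences are from RefSeq promoter tables matched by symbol; no protein sequence or transcript length was used here, so levels are not compared between genes.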

Additional observations from a re-analysis of the deposited data

How the results depend on the processing

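The numbers of genes of the set past the threshold moved as follows. With lane as a covariate 0 were called in immunoprecipitates between genotypes in naive mice, at 1 h and over both states and in cKI mice after conditioning, and 0 in inputs between genotypes at 1 h and over both states and in controls after conditioning. Within 1 lane 0 were called in immunoprecipitates between genotypes at 1 h and 0 in naive inputs. DESeq2's Wald test called 2 in immunoprecipitates between genotypes at 1 h, 5 over both states, 2 after conditioning in cKI mice and 2 in the interaction, and 4 in naive inputs and 2 in the input interaction. With no filter on low counts 5 were called in immunoprecipitates over both states, 1 in the interaction, 2 in naive inputs and 0 in the genotype difference of the immunoprecipitate to input ratio. With only the 2 groups compared 0 were called after conditioning in immunoprecipitates of control and of cKI mice, 0 in naive inputs, 3 in inputs at 1 h and 0 in control inputs after conditioning. DESeq2 size factors moved no count by over 1.5 times, and the cause was not tested for any of these moves.

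Deviations of same-numbered libraries correlated at a median of -0.03 in inputs (1 of 18 pairs over 0.1) and 0.09 in immunoprecipitates (9 of 18). Apart from naive against conditioned cKI immunoprecipitates, no 2 groups of a fraction had all 3 pairs over 0.1. The highest single correlation lay elsewhere, at 0.505 between immunoprecipitates of naive control 1 and cKI 1 at 1 h. Libraries of different number were not compared in this way, so a pairing is neither shown nor excluded for any groups. With the replicate block 2 genes were called in immunoprecipitates between genotypes at 1 h, 1 in the interaction, 0 in naive inputs and 0 in cKI inputs after conditioning; in cKI immunoprecipitates after conditioning the count was 1 with and without it. In inputs the block took the adjusted p of Sfrp1 to 0.05 in naive mice and 0.071 after conditioning in controls, and that of Wnt7a over both states to 0.078. Immunoprecipitate and input of 1 mouse share that mouse, and with the mouse as a replicate block 43 of 48 genes were called between fractions.

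Leaving out each library in turn gave 0 to 9 calls in immunoprecipitates between genotypes in naive mice (0 without naive control 2, 2 without naive control 3 or naive cKI 2, 3 without naive cKI 3 and 9 without naive control 1, against 6 with all libraries), 0 to 1 at 1 h and 1 to 4 over both states. It gave 0 to 1 after conditioning in control and in cKI mice and 0 to 1 in the interaction. In inputs it gave 0 to 2 between genotypes in naive mice, 0 to 2 at 1 h, 1 to 4 over both states, 0 to 3 after conditioning in controls, 0 to 1 in cKI and 0 to 0 in the interaction. Between fractions it gave 43 to 44, and 0 to 1 for the ratio with genotype. Wnt9a in control immunoprecipitates after conditioning ran from -0.32 to 0.048 and changed sign without naive control 1. Depth limits the low genes in immunoprecipitates, where Notum had 1 to 12, Dkk2 3 to 38 and Fzd2 6 to 38 counts per library. Over all genes, 564 were called in immunoprecipitates of naive mice between genotypes, against 1285 by DESeq2's Wald test, 1018 with the replicate block, 369 with only the 2 groups compared, 1 with lane as a covariate, and 22 to 933 leaving out each library (22 without naive control 2, 933 without naive control 1).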
